A study of Mus musculus with 8 samples.

Results

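The genes described here are 7 receptors that steer leukocytes along gradients of chemokines or lipids: *Ccr1*, *Ccr2*, *Ccrl2*, *Cx3cr1*, *Cxcr4*, *S1pr1* and *Cnr2*. They were taken by symbol from the gene count table, in which they are 7 of 53819 gene rows, and all 7 were among the 13722 genes with enough reads to be tested. They were selected with their response to bilirubin already known, so their treatment values are given as a description, without a p-value.

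Bone marrow-derived macrophages (BMDM) were grown from 4 female BALB/cJ mice that were 8 weeks old, over 5 days in 25 ng/mL M-CSF, the growth factor that drives marrow precursors to become macrophages. The BMDM of each mouse were then split into a vehicle culture, which received DMSO only, and a culture with 2.5 µM bilirubin, the end product of heme breakdown, for 48 h. Each group thus has 1 culture per mouse, and the 8 libraries held between 34142781 and 47071714 gene-assigned reads. The comparison addressed whether bilirubin alters macrophage gene expression, with the separate mice kept apart to show differences between animals.

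Chemokine receptors are G protein-coupled receptors that signal mainly through Gi proteins and turn a ligand gradient into directed movement. On monocytes and macrophages, CCR2 governs exit from the marrow and entry into inflamed tissue, CX3CR1 marks patrolling monocytes and many resident macrophages, and CXCR4 holds cells in the marrow. The sphingosine 1-phosphate receptor S1PR1 and the cannabinoid receptor CNR2 sense lipids, while CCRL2 is an atypical receptor that binds chemerin and presents it to neighbouring cells without signaling itself.

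Promoter sequences are shown for 3 receptors that differed most in level or response: *Ccrl2*, which rose with bilirubin, *Cx3cr1*, which had the largest fall, and *Cxcr4*, the most abundant. They are RefSeq windows on GRCm38.p6 running from 250 bases before to 50 bases after the transcript start, written 5′ to 3′ on the gene's strand, which is the minus strand for all 3. Entries were found for 6 of the 7 receptors, with 9 entries in all. *Ccrl2* is at chr9:111057469-111057768 with the NF-kB core in capitals, *Cx3cr1* at chr9:120068247-120068546 with the aryl hydrocarbon receptor core in capitals, and *Cxcr4* at chr1:128592250-128592549 with the Sp1 boxes and the TATA box in capitals.
Ccrl2: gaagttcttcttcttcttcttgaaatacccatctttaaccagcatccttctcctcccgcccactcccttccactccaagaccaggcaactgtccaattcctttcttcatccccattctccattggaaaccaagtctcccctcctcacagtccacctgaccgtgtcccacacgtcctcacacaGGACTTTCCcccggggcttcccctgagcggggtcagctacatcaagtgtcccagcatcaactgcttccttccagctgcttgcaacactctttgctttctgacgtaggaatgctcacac
Cx3cr1: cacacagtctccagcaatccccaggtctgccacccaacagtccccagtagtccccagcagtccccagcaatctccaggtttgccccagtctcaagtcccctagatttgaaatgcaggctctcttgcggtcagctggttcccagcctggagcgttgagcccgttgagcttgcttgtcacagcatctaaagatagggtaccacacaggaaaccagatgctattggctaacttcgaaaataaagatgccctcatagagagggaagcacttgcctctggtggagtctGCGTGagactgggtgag
Cxcr4: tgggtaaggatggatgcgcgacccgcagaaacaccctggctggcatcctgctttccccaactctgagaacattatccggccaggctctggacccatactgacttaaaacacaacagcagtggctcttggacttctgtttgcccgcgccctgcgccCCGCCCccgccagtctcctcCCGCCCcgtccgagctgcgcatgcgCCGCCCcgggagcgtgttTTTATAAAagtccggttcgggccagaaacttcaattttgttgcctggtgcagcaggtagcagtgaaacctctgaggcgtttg

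Both strands of each window were searched for 6 short motifs. The NF-kB core, GGACTTTCC, was present in 0.344% of all 32851 promoters of this length. The AP-1 motif, TGANTCA, was in 7.81% of them and in none of the windows of these receptors. For the aryl hydrocarbon receptor core, GCGTG, the share was 32.4%, and for the PU.1 core, whose letters are GAGGAA, it was 28.3%. The Sp1 box, GGGCGG, was found in 35.7% of all promoters. The TATA box, searched as TATAAA, was found in 13.6% of them. With the transcript start as position 0, the *Ccrl2* window shown held the NF-kB core from position -68 and an Sp1 box on the opposite strand from position -195, and no other window of these receptors held the NF-kB core. The *Cx3cr1* window held the aryl hydrocarbon receptor core from position 33 and none of the other 5 motifs. The *Cxcr4* window held 3 Sp1 boxes on the opposite strand, from positions -95, -75 and -50, an aryl hydrocarbon receptor core from position -39, and TATA box matches on both strands that overlap, from positions -32 and -30. These matches describe letters only, and no binding was measured here.

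On GRCm39, 4 of the 7 genes are on chromosome 9. *Ccr1* (ENSMUSG00000025804, 123762161 to 123768734, minus strand) and *Ccr2* (ENSMUSG00000049103, 123901982 to 123913594, plus strand) belong to a chemokine receptor cluster that also holds *Ccr1l1* and *Ccr3*. *Cx3cr1* (ENSMUSG00000052336, 119877749 to 119898945, minus strand) is 3.863 Mb from *Ccr1*, and *Ccrl2* (ENSMUSG00000043953, 110883554 to 110886591, minus strand) is 12.88 Mb from it. *Cxcr4* (ENSMUSG00000045382) is on chromosome 1 at 128515936 to 128520044, *S1pr1* (ENSMUSG00000045092) on chromosome 3 at 115504071 to 115508721, both on the minus strand, and *Cnr2* (ENSMUSG00000062585) on chromosome 4 at 135622696 to 135647518 on the plus strand. Of the 7, *Ccr2* shared the largest part of its 31-base words with other genes, 3.67%, followed by *Cx3cr1* at 3.16%. The words were counted on a different annotation release from the one used to quantify reads, and errors of read assignment were not measured. The genes *Gm33858* and *Gm9889*, which overlap *Cx3cr1* and *S1pr1* on the other strand, each reached at most 6 reads in a library.

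Across the receptors, bilirubin-treated BMDM held less *Cx3cr1*, *S1pr1*, *Cnr2* and *Cxcr4* mRNA and more *Ccrl2* mRNA than the vehicle cultures of the same mice, whereas *Ccr1* and *Ccr2* showed no common direction. Levels are given as counts scaled to library size (CPM, TMM-scaled) and changes as log2 of bilirubin over vehicle with the standard error (SE) of the edgeR estimate. In the edgeR quasi-likelihood fit with mouse as a replicate block, 5 of the 7 passed an adjusted p of 0.05, 1 of them higher and 4 lower. Of all 13722 genes, 4.49% were called higher and 3.04% lower, and since the receptors were chosen on this contrast nothing is read from their share. Without the replicate block 2 of the 7 passed, *Cx3cr1* and *Ccrl2*, beside 686 genes over the whole table. Without mouse 3 (377 genes over the whole table), and also without mouse 4 (441 genes), the 2 that passed were *Cx3cr1* and *S1pr1*. Over 12 alternative settings, *Cx3cr1* passed in 12, *S1pr1* in 11, *Ccrl2* in 9, *Cxcr4* in 9 and *Cnr2* in 8. These settings refit the contrast that chose the receptors, so the counts are given as a description only. The vehicle and bilirubin values did not overlap for 3 of the 7 (*Cx3cr1*, *Ccrl2* and *Cnr2*), beside 10.6% of all genes. In bulk RNA, fewer cells carrying a receptor and less receptor mRNA per cell cannot be told apart.

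**Figure D1:**
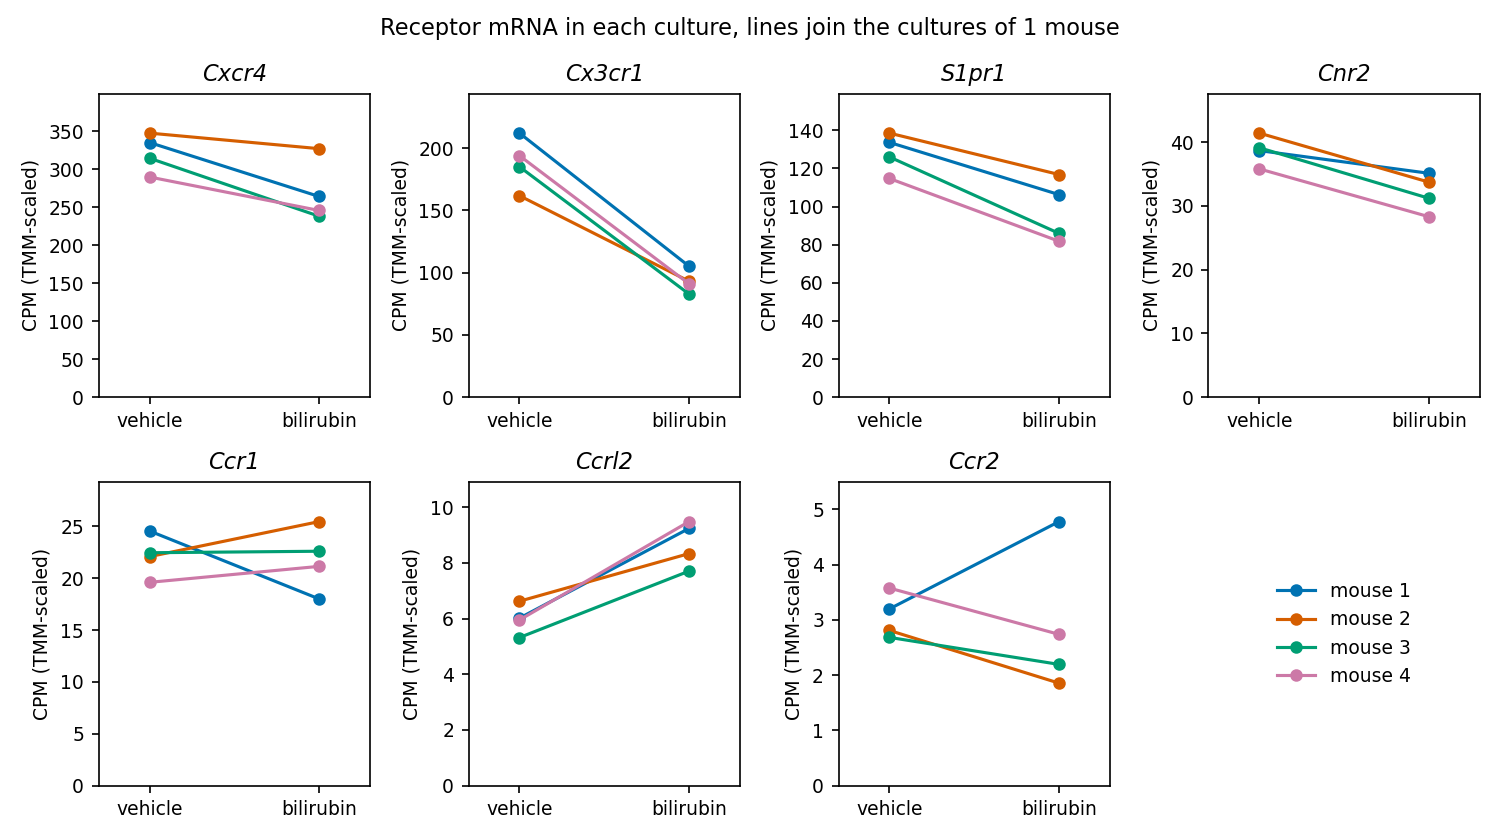
CPM (TMM-scaled) of each receptor in the vehicle and bilirubin cultures, with 1 line per mouse and axes that start at 0. All 4 lines fall for *Cx3cr1*, *S1pr1*, *Cnr2* and *Cxcr4* and rise for *Ccrl2*, while mouse 1 runs against the other mice for *Ccr1* and *Ccr2*.

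*Cx3cr1* encodes the receptor for fractalkine (CX3CL1), a chemokine that is held on cell membranes. Its vehicle cultures had 212.1, 161.8, 185.1 and 194.0 CPM in mice 1 to 4, and its bilirubin cultures had 105.2, 93.1, 82.8 and 91.1 CPM. The highest bilirubin culture was below the lowest vehicle culture. The change came to -1.02 (SE 0.06), and within mice 1 to 4 it was -1.01, -0.80, -1.16 and -1.09. Over 12 alternative settings of the analysis the estimate lay between -1.09 and -0.97.

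*Cxcr4*, the receptor for CXCL12, was the most abundant of the 7. Vehicle cultures had 335.2, 347.7, 314.6 and 289.9 CPM, and bilirubin cultures had 264.2, 327.2, 238.2 and 245.8 CPM. The groups overlapped because the bilirubin culture of mouse 2 was above the vehicle cultures of mice 3 and 4, yet each mouse had less with bilirubin. The change came to -0.27 (SE 0.05), and the within-mouse values ran from -0.40 in mouse 3 to -0.09 in mouse 2. Over the 12 settings the estimate for *Cxcr4* lay between -0.33 and -0.22.

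*Ccr2*, the receptor for CCL2 and CCL7, had the fewest reads of the 7, between 67 and 166 in a library. Vehicle cultures had 3.20, 2.81, 2.68 and 3.57 CPM, and bilirubin cultures had 4.78, 1.85, 2.19 and 2.74 CPM. Mouse 1 alone had more with bilirubin. Its log2 difference was 0.57, against -0.59, -0.28 and -0.38 in mice 2, 3 and 4, and the estimate over all mice was -0.15 (SE 0.21). Without mouse 1 the estimate was -0.42 (SE 0.17), the lowest of the 12 settings, and the highest was -0.02.

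*Ccr1*, a receptor for CCL3, CCL5, CCL6 and CCL9, had 24.6, 22.1, 22.5 and 19.6 CPM with vehicle and 18.0, 25.5, 22.6 and 21.2 CPM with bilirubin. The bilirubin cultures of *Ccr1* held both the lowest and the highest of the 8 values. The log2 difference was -0.45 in mouse 1 and 0.20, 0.01 and 0.11 in the others, the opposite split to that of *Ccr2*. The estimate over all mice was -0.03 (SE 0.10), and without mouse 1 it turned positive, at 0.10.

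*Ccrl2*, the chemerin-binding atypical receptor, was the only one of the 7 that rose. Vehicle cultures had 6.02, 6.62, 5.32 and 5.95 CPM, and bilirubin cultures had 9.24, 8.33, 7.70 and 9.48 CPM. All bilirubin cultures were above all vehicle cultures. The change came to 0.54 (SE 0.09), with 0.61, 0.33, 0.53 and 0.67 in mice 1 to 4. With transcript counts and a length offset it was 0.72, though *Ccrl2* was not called in that setting. Over all 12 settings the estimate lay between 0.50 and 0.72.

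Both lipid receptors of the set fell. *S1pr1*, whose product senses sphingosine 1-phosphate and guides exit from tissues into blood and lymph, had 133.6, 138.5, 126.0 and 114.7 CPM with vehicle and 106.3, 116.8, 85.9 and 81.8 CPM with bilirubin. Only the bilirubin culture of mouse 2 lay within the vehicle range. The change came to -0.40 (SE 0.05), from -0.55 in mouse 3 to -0.25 in mouse 2. Over the 12 settings the estimate for *S1pr1* lay between -0.46 and -0.36.

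*Cnr2*, the cannabinoid receptor of leukocytes, had 38.7, 41.4, 39.1 and 35.8 CPM with vehicle and 35.1, 33.7, 31.2 and 28.3 CPM with bilirubin. The groups were separate by a small margin, since mouse 1 with bilirubin had 35.1 CPM and mouse 4 with vehicle had 35.8 CPM. The change came to -0.27 (SE 0.05), from -0.34 in mouse 4 to -0.14 in mouse 1. Over the 12 settings the estimate for *Cnr2* lay between -0.32 and -0.25.

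**Figure D2:**
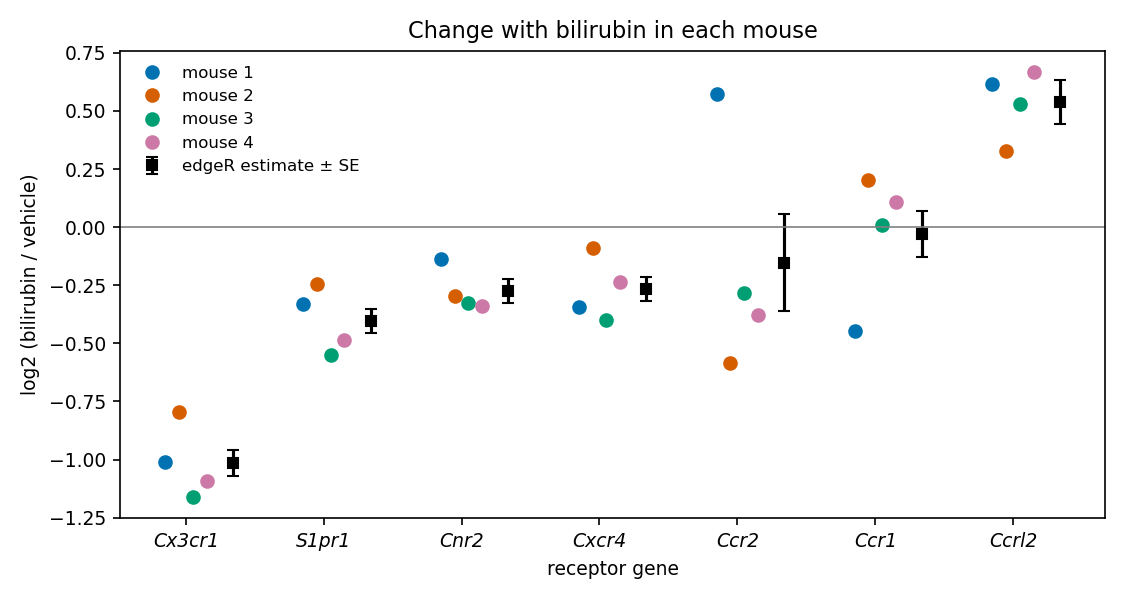
Log2 ratio of bilirubin to vehicle for each receptor (vertical axis), with 1 coloured point per mouse and a black square for the edgeR estimate with its standard error. *Cx3cr1* lies between -1.16 and -0.80 in all mice, and *Ccr2* spans -0.59 to 0.57.

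Levels of different genes were compared as TPM, which scales reads by transcript length and by library. In vehicle cultures *Cxcr4* had 349.0 ± 22.5 TPM (SD, n = 4), followed by *Cx3cr1* at 89.5 ± 11.1, *S1pr1* at 69.4 ± 5.72, *Cnr2* at 16.3 ± 0.937, *Ccr1* at 13.0 ± 1.26, *Ccrl2* at 7.24 ± 0.915 and *Ccr2* at 1.58 ± 0.199 TPM. The order was the same in all 4 mice. Each neighbour in it was compared within mice by a two-sided exact sign-flip permutation test, and each gave p = 0.125, the smallest that 4 mice allow, so no neighbouring pair could pass 0.05, before or after adjustment over the 6 pairs. The narrowest steps were *Cnr2* over *Ccr1*, a ratio of 1.26, and *Cx3cr1* over *S1pr1*, a ratio of 1.29. The widest was *Ccrl2* over *Ccr2*, a ratio of 4.59. Among the 13722 tested genes, vehicle TPM placed *Cxcr4* at percentile 97.2, *Cx3cr1* at 88.0 and *S1pr1* at 84.4, and *Ccr2* at 18.0.

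With bilirubin the order of levels changed below *Cxcr4*. *Cxcr4* was at 282.7 ± 42.9 TPM, *S1pr1* at 51.3 ± 9.44 and *Cx3cr1* at 43.3 ± 5.79 TPM (SD, n = 4), and *S1pr1* was above *Cx3cr1* in 3 of 4 mice, whereas it was below in all 4 with vehicle. *Cnr2* at 13.1 ± 1.65, *Ccr1* at 12.3 ± 1.47 and *Ccrl2* at 11.6 ± 1.87 TPM had drawn together. By scaled counts the fold for *Ccrl2* was 1.45. Its TPM depends in addition on how its reads were shared between transcripts of unlike length, which is imprecise. *Cnr2* was above *Ccr1* in 1 of 4 mice, against the order of the means, and *Ccr1* was above *Ccrl2* in 2 of 4. *Ccr2* remained last at 1.45 ± 0.830 TPM. The summed TPM of the 7 receptors was 510.6 to 573.6 with vehicle and 368.8 to 480.2 with bilirubin. *Cx3cr1* made up 13.5% to 18.2% of that sum with vehicle and 8.72% to 11.6% with bilirubin, and *Cxcr4* made up 62.5% to 66.2% and 65.7% to 70.7%.

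**Figure D3:**
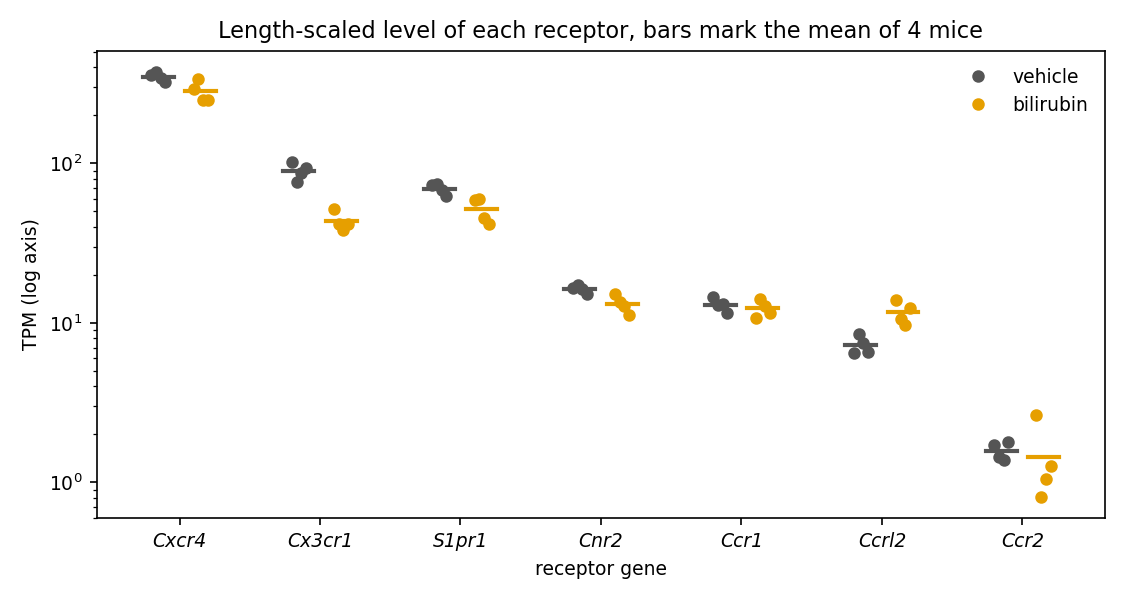
TPM on a log axis for the 7 receptors, with 1 point per mouse, bars at the mean of 4 mice, vehicle in grey and bilirubin in orange. *Cxcr4* leads in both groups, *Cx3cr1* drops from 89.5 to 43.3 TPM to below *S1pr1*, and *Ccrl2* rises from 7.24 to 11.6 TPM.

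Each mouse gave 1 culture to each group, so the choice of receptors did not use the differences between mice directly. The mouse test shares its residual variance with the treatment test, however, so it is not independent of that choice. In the edgeR test of the mouse term, 0 of the 7 receptors passed, with adjusted p between 0.270 and 0.734, and 0.0364% of all genes did. At an unadjusted p under 0.05 there were 4 of 7, *S1pr1*, *Cxcr4*, *Cx3cr1* and *Cnr2*, beside 13.2% of all genes. All of these receptors also passed for treatment, so nothing is read from their share. *S1pr1*, *Cxcr4* and *Cnr2* were each highest in mouse 2 and lowest in mouse 4, averaged over both cultures, with log2 ranges between mice of 0.39, 0.34 and 0.23. *Cx3cr1* was highest in mouse 1 and lowest in mouse 2. *Ccr2* had the largest log2 range, 0.76, with an adjusted p of 0.429 by edgeR. DESeq2 called *S1pr1* (adjusted p = 0.00461) and *Cxcr4* (adjusted p = 0.0109), limma-voom called 0, and without mouse 1 edgeR called *S1pr1* (adjusted p = 0.0358) and *Cxcr4* (adjusted p = 0.0396). For the mouse term over all genes, DESeq2 called 242, limma-voom 5 and edgeR without mouse 1 183, against 5 in the main fit. Nothing is read from these receptor calls either.

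Transcript usage within the receptors was read as the share of each transcript in its gene's TPM. *Ccr1* and *S1pr1* each had only 1 transcript in the quantification, so their share was fixed in advance. *Cnr2* had 2 transcripts, and its reads were assigned to 1 of them. *Cxcr4* was split between a transcript of 1805 bases with 77.7% ± 3.51 in vehicle and 77.7% ± 0.845 in bilirubin cultures (SD, n = 4) and a shorter one with 22.3% in both. For *Cx3cr1*, ENSMUST00000177637 held 53.3%, 48.0%, 49.4% and 55.9% with vehicle and 56.8%, 50.8%, 51.4% and 65.8% with bilirubin in mice 1 to 4, and ENSMUST00000064165 held nearly all the rest. The share of the former was higher with bilirubin in all 4 mice, by 4.53 percentage points ± 3.62.

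For *Ccr2*, ENSMUST00000055918 held 49.0%, 67.2%, 79.0% and 59.4% with vehicle and 40.9%, 57.4%, 40.5% and 57.2% with bilirubin, lower in all 4 mice by amounts that differed widely. The single-exon transcript ENSMUST00000165984 went from 28.0% ± 9.71 to 38.3% ± 10.5 and was higher in 2 of 4 mice. For *Ccrl2*, the shortest transcript, of 569 bases, went from 38.7% ± 11.5 to 48.6% ± 4.92 and was higher in 3 of 4 mice. In all, 3 of the 9 transcripts compared moved the same way in every mouse. These include both *Cx3cr1* transcripts, which make up nearly all of that gene, so the rise of ENSMUST00000177637 entails the fall of ENSMUST00000064165. With few reads for *Ccr2* and *Ccrl2* these shares are imprecise, and since they come from the contrast that chose the genes they are given without a test.

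**Figure D4:**
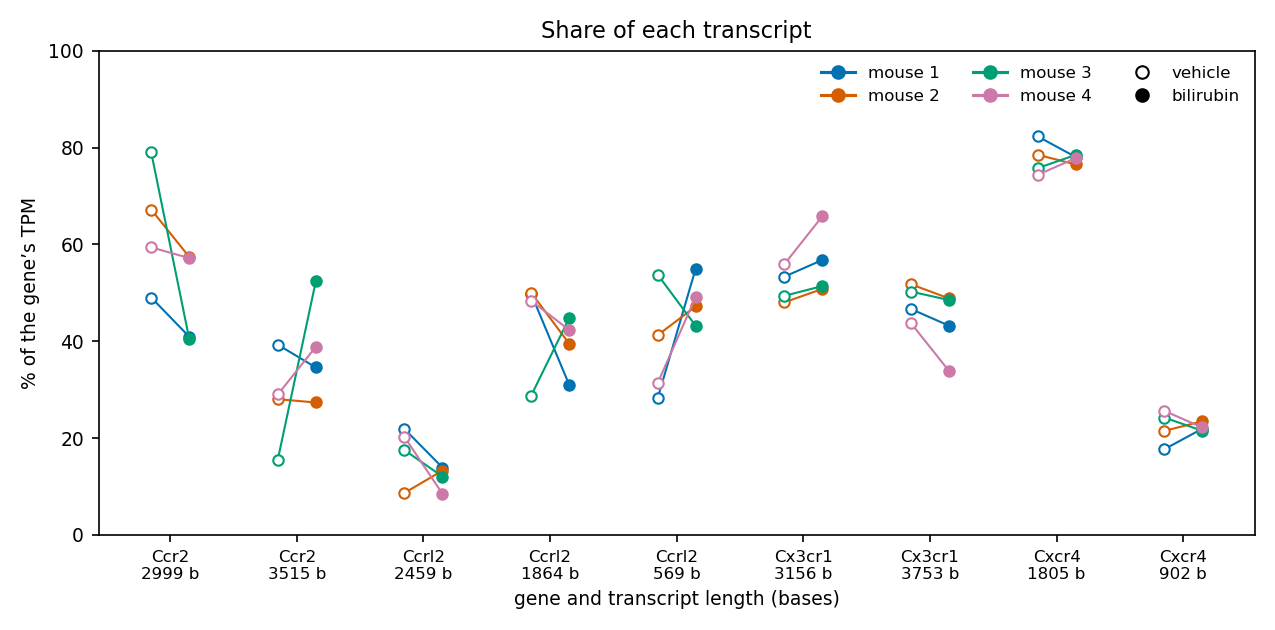
Percent of the gene's TPM held by each transcript with at least 10% (vertical axis), labelled by gene and transcript length, with open points for vehicle, filled points for bilirubin and 1 colour per mouse. Within each *Cx3cr1* transcript the lines run in the same direction, most steeply in mouse 4. For *Ccr2* the transcript of 2999 bases falls in all 4 mice and that of 3515 bases moves both ways. The lines of *Ccrl2* also run both ways, and *Cxcr4* stays near 77.7% and 22.3%.

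The receptors were then set beside the complete families they belong to, with the 7 left out of the counts. For comparison with each list count below, 4.49% of all 13722 genes were called higher and 3.04% lower. At an unadjusted p under 0.05 by edgeR there were 2851 of the 13722. Of 15 further chemokine receptors, 4 had enough reads in the fit that included all 8 libraries, and 0 of these passed in the edgeR test (0 at an unadjusted p under 0.05, 0 with DESeq2 and 0 with limma-voom). Values of this list without mouse 1 are not reported here. Their median log2 fold change was -0.22, beside -0.00 for all tested genes. Named here after their values were seen, *Ccr3* was at 6.58 ± 1.2 and 5.85 ± 0.824 CPM (SD, n = 4), *Cxcr3* at 3.25 ± 0.677 and 2.97 ± 0.632, and *Cxcr2*, the neutrophil receptor, at 0.449 ± 0.00706 and 0.410 ± 0.258 CPM in vehicle and bilirubin cultures. The 5 other atypical receptors were all untested, with at most 5 reads in a library. *Ccr7*, which guides dendritic cells to lymph nodes, had at most 4 reads in any library.

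*Cmklr1*, the signaling receptor for chemerin, rose with *Ccrl2*. Vehicle cultures averaged 9.58 ± 0.238 CPM and bilirubin cultures 26.3 ± 7.77 CPM (SD, n = 4), and edgeR put the change at 1.42 (SE 0.15) with an adjusted p of 8.22e-04. It was higher in 4 of 4 mice, and it passed under all 12 alternative settings with log2 fold changes between 1.27 and 1.60. The gene for the other chemerin receptor on the list, *Gpr1*, had 0 reads in all 8 libraries, and *Rarres2*, which encodes chemerin, had at most 11 reads in a library and was not tested.

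Of 22 further lipid receptors, 13 were tested, 2 rose and 0 fell, with a median log2 fold change of -0.04. At an unadjusted p under 0.05 by edgeR there were 8 of the 13. Without mouse 1, 6 passed, 4 higher (*Gpr132*, *Gpr18*, *Lpar1* and *Ptafr*) and 2 lower (*Gpr183* and *Lpar6*), and without mouse 3 or mouse 4, 0 passed. Over the whole table, 1033 genes were called with all mice, 1910 without mouse 1, 377 without mouse 3 and 441 without mouse 4. List counts with a mouse left out, here and below, are to be read beside these totals. With all mice, library size scaling called 4 of these lipid receptors, of which *Gpr183* and *S1pr2* were lower. DESeq2 called 3 (*Gpr132*, *Lpar1* and, lower, *S1pr2*) and limma-voom 4 (*Gpr132*, *Gpr18*, *Lpar1* and, lower, *Gpr183*). In edgeR, the size factors of DESeq2 gave 3 calls, with *Gpr183* lower, no filter on low counts gave 7, and the length offset gave 1. *Gpr132*, a receptor for oxidised fatty acids, went from 4.94 ± 0.738 to 8.73 ± 1.48 CPM (log2 change 0.82, SE 0.14, adjusted p = 0.00958 by edgeR, higher in 4 of 4 mice), and it missed the threshold when mouse 3 was left out, at an adjusted p of 0.0959, or mouse 4, at 0.0700. *Gpr18* had at most 34 reads in a library. Its log2 change was 1.69 (SE 0.40, adjusted p = 0.0427 by edgeR), and it did not pass with DESeq2, with the length offset or without mouse 2, 3 or 4. The sphingosine 1-phosphate receptor *S1pr2*, at 109.5 ± 4.79 and 97.3 ± 10.6 CPM, had a log2 change of -0.18 (SE 0.05, adjusted p = 0.0731), and *Gpr183*, the oxysterol receptor, was at -0.20 (SE 0.05, adjusted p = 0.0514). *Ptafr*, the receptor for platelet-activating factor, was at 0.18 (SE 0.07, adjusted p = 0.170). *Cnr1*, the other cannabinoid receptor, had at most 4 reads in a library.

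**Figure D5:**
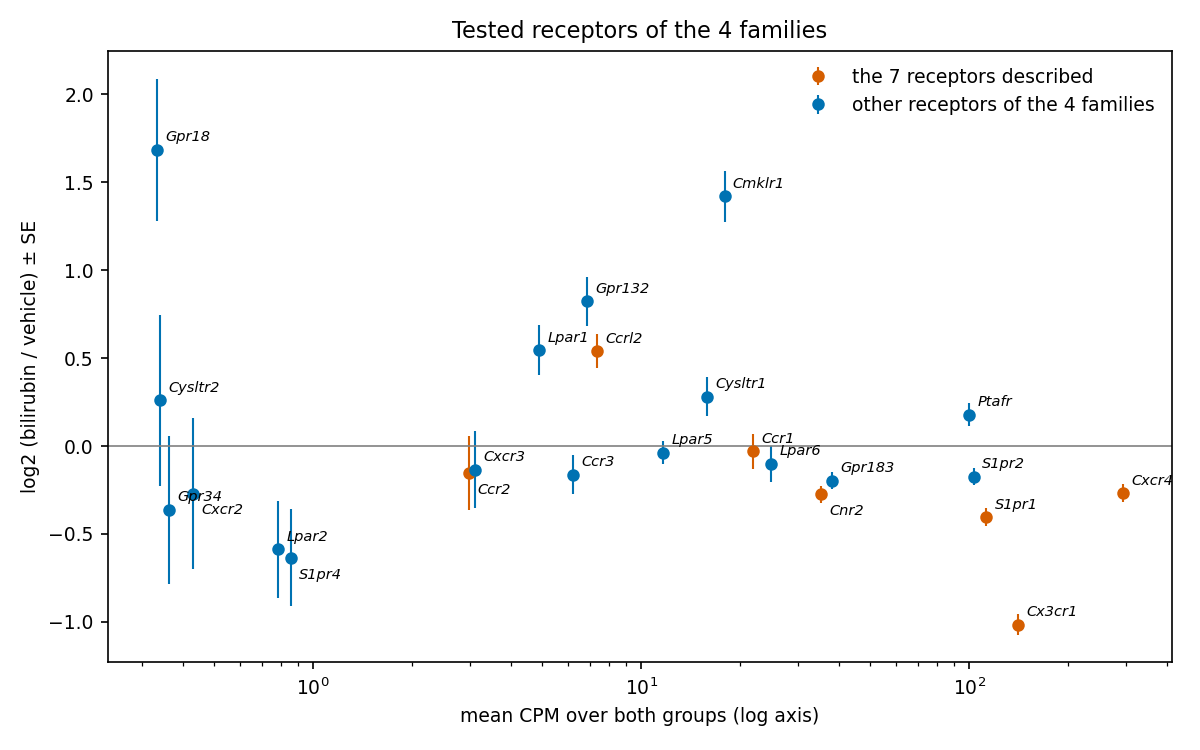
Log2 ratio of bilirubin to vehicle with its standard error (vertical axis) against mean CPM on a log axis, for tested receptors of the 4 families, the 7 described here in orange. *Cmklr1* at 1.42 and *Cx3cr1* at -1.02 lie farthest from 0 among receptors above 1 CPM.

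In all, 25 of 51 receptors in the 4 families were tested, and 13 of the 51 had at most 3 reads in every library, a level at which expression was not detectable at this depth. By vehicle TPM the 7 held ranks 1 (*Cxcr4*), 2 (*Cx3cr1*), 3 (*S1pr1*), 7 (*Cnr2*), 9 (*Ccr1*) and 12 (*Ccrl2*) among the 51, and *Ccr2* lay below the first 15. They made up 77.2% to 79.3% of the family's summed TPM with vehicle and 69.9% to 75.5% with bilirubin.

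Genes for ligands of these receptors moved in both directions. Of 11 ligand genes, 9 were tested, 3 rose and 2 fell, with a median log2 fold change of -0.14 (5 at an unadjusted p under 0.05 by edgeR). The *Ccr2* ligands *Ccl7* and *Ccl2* fell, *Ccl7* from 32.7 ± 8.27 to 17.0 ± 5.20 CPM (log2 change -0.96, SE 0.08, adjusted p = 2.94e-04 by edgeR) and *Ccl2* from 216.2 ± 43.0 to 147.5 ± 45.5 CPM (log2 change -0.59, SE 0.08, adjusted p = 0.00318). *Ccl2* lost its call without the replicate block (adjusted p = 0.193). Among ligands of *Ccr1*, *Ccl5* rose from 1.1 ± 0.0485 to 11.7 ± 2.7 CPM and *Ccl9* from 363.0 ± 24.9 to 466.6 ± 77.0 CPM (log2 change 0.35, SE 0.08, adjusted p = 0.0298), while *Ccl3* was at 56.1 ± 2.5 and 52.2 ± 9.8 CPM and *Ccl6* at 45.0 ± 5.97 and 42.9 ± 18.6 CPM. Without mouse 1 the call for *Ccl6* changed (log2 -0.37, adjusted p = 0.0196). *Mif*, whose product can bind CXCR4, had a log2 change of 0.21 (SE 0.05, adjusted p = 0.0322). *Ccl9* and *Mif* did not pass without mouse 3, without mouse 4, without the replicate block or with the length offset, and in addition *Ccl9* did not pass with DESeq2 or *Mif* without mouse 2. *Cx3cl1*, the ligand of *Cx3cr1*, was at 0.853 ± 0.249 and 0.765 ± 0.203 CPM, and *Cxcl12* had at most 22 reads in a library.

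Most genes for enzymes that make and remove the lipid ligands did not pass. Of 13 genes for sphingosine 1-phosphate enzymes and transporters, 9 were tested and 0 passed by edgeR (2 at an unadjusted p under 0.05, 0 with DESeq2 or limma-voom, 2 without mouse 1, *Asah2* and *Plpp3*, and 2 with no filter on low counts, *Plpp1* and *Plpp3*), with a median log2 fold change of 0.01. *Sgpl1*, the lyase that destroys sphingosine 1-phosphate, was the most abundant of them, at 602.2 ± 28.4 and 563.7 ± 37.6 CPM. Of 10 endocannabinoid genes, 9 were tested, with a median of -0.03 (3 at an unadjusted p under 0.05 by edgeR). *Naaa*, which hydrolyses N-acylethanolamines, rose from 21.2 ± 1.71 to 29.1 ± 2.66 CPM (log2 change 0.45, SE 0.06, adjusted p = 0.00229), and *Abhd12*, a hydrolase of 2-arachidonoylglycerol and lysophosphatidylserine, fell from 284.3 ± 7.67 to 233.8 ± 13.1 CPM (log2 change -0.28, SE 0.04, adjusted p = 0.00447 by edgeR). Both were called under all 12 settings, and without mouse 1 there were 4 calls, *Daglb* and *Gde1* being the further genes.

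Among 18 genes for receptor desensitisation and trafficking, all tested, 1 rose and 3 fell, with a median log2 fold change of 0.01. At an unadjusted p under 0.05 by edgeR there were 8 of the 18. *Grk3*, a kinase that phosphorylates activated receptors, rose from 14.6 ± 1.08 to 22.1 ± 3.65 CPM (log2 change 0.59, SE 0.08, adjusted p = 0.00372 by edgeR), under all 12 settings. The regulators of G protein signaling *Rgs1*, *Rgs2* and *Rgs10*, which shorten Gi or Gq signals, fell by 0.45, 0.34 and 0.24 on the log2 scale, with adjusted p of 0.0454, 0.00945 and 0.00706 by edgeR. None of these 3 was called without mouse 3, *Rgs1* and *Rgs10* were not called without mouse 4, and *Rgs1* and *Rgs2* were not called with the length offset. *Rgs1* was also not called without the replicate block or with DESeq2. Without mouse 1, 7 of the 18 passed, the further 3 (*Arrb2*, *Grk2* and *Rgs18*) being lower. Calls over the whole table also rose in that setting, from 1033 to 1910 genes. Of 22 genes that carry Gi signals to movement, 21 were tested, 2 rose (*Pik3r5* by 0.33 and *Rac2* by 0.18 on the log2 scale) and 1 fell (*Gng5*, -0.17), with a median of 0.04. In this list 4 of the 21 had an unadjusted p under 0.05 by edgeR. *Pik3r5*, a subunit of the Gi-responsive PI3-kinase gamma, was called under all 12 settings, while *Rac2* and *Gng5* were not called without mouse 2, 3 or 4 or with the length offset, which put *Rac2* at 0.10 (adjusted p = 0.268 by edgeR). Without mouse 1, 5 of the 21 passed, *Elmo1* and *Gng2* being further genes that were lower. *Gnai2*, the main Gi subunit of leukocytes, was at 1114 ± 6.87 and 1151 ± 52.7 CPM, with an adjusted p of 0.516.

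The labelled cell type was checked by 8 macrophage markers, all tested. They summed to between 24210 and 24511 CPM with vehicle and between 28574 and 30555 CPM with bilirubin. Of the 8, 3 rose (*Adgre1*, *Itgam*, *Lyz2*) while 1 fell. *Lyz2* alone had 18802 to 25317 CPM over all libraries. Neutrophil markers, 10 genes of which 3 were tested, summed to 11.5 to 14.2 CPM and 20.2 to 32.8 CPM. Of these, *S100a8* was higher and *Retnlg* was at 0 reads in all libraries. *S100a8* alone had 10.6 to 30.9 CPM, and each other neutrophil marker had at most 0.806 CPM. Monocyte markers, 6 genes with 1 tested, summed to 5.27 to 6.42 and 4.31 to 5.46 CPM, and dendritic cell markers, 8 genes with 0 tested, to 0.0235 to 0.318 and 0.449 to 0.796 CPM. Erythroid and megakaryocyte markers, 6 genes with 1 tested, summed to 51.6 to 61.7 and 33.7 to 42.8 CPM, with *Pf4* lower. *Pf4* alone had 33.1 to 61.3 CPM, and each other gene of that list had at most 0.460 CPM. The part of these shifts in the receptor values was not tested. Eosinophil markers summed to 7.63 to 9.62 and 8.18 to 9.18 CPM, stromal markers to 2.29 to 8.28 and 2.44 to 8.03 CPM, and endothelial markers to 12.8 to 14.6 and 9.52 to 18.1 CPM. Markers of T and NK cells, B cells, and mast cells and basophils each summed to at most 0.722 CPM in any library, with *Trac* and *Mcpt8* at 0.

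Across the 8 libraries, the gene whose log2 CPM followed each receptor most closely, out of 10899 genes whose log2 CPM averaged 1 or more, was *Rap2a* for *Cx3cr1* (Pearson r = 0.993), *Mtmr9* for *Cxcr4* (0.994), *Dnajb14* for *S1pr1* (0.990), *Dag1* for *Cnr2* (0.986), *Scamp4* for *Ccr1* (0.992), *Hs2st1* for *Ccr2* (0.988) and *Tfec* for *Ccrl2* (0.976). These are the highest of 10899 values over 8 points that share mice and treatment, and they are given as a description. *Mef2c* and *Apoc2* came next for *Cx3cr1* (0.985 each), *Frrs1* and *Sgpl1* for *Cxcr4* (0.984 and 0.982), and *Rab32* and *Rac1* for *Ccr2* (0.977 and 0.973). The others were *Ndst1* and *Scarb2* for *S1pr1* (0.988 and 0.986), *Sumf1* and *Mrtfb* for *Cnr2* (0.979 each), *Zranb2* and *Mlh3* for *Ccr1* (0.972 and 0.968), and *Gm15931* and *Vps13a* for *Ccrl2* (0.974 and 0.967). *Sgpl1* was thus among the 3 genes closest to *Cxcr4* and was not among the 3 closest to *S1pr1*.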

How the data were processed

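RNA was sequenced from 8 BMDM cultures, a vehicle and a bilirubin culture from each of 4 mice. Per the labels and the study's methods, the authors trimmed reads with Trim Galore 0.6.7 and Cutadapt 3.4, aligned them with STAR 2.7.9a to GRCm39, estimated transcript abundance with Salmon 1.10.1 and summed it per gene. The deposited gene table holds estimated counts (88.5% of values are whole), which were rounded here. Deposited transcript files give TPM per library. Strandedness is not given in the sources used here.

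Genes were filtered with filterByExpr (minimum count 10, total 15) and fitted with edgeR 4.0.16 in R 4.3.3 on TMM-scaled counts with mouse and treatment as terms, with Benjamini-Hochberg adjustment over 13722 genes and a threshold of 0.05. The mouse number pairs cultures of the same animal. Deviations from the group means correlated at 0.108, 0.134, 0.108 and -0.005 for the same mouse and at -0.03 on average between mice. The highest value between different mice was 0.075. Centring on the group means ties the average between mice to the same-mouse values, so no conclusion on the pairing is drawn from it. DESeq2 1.42.0, limma 3.58.1 and the other settings are alternatives. Receptors, gene lists and tests were chosen with earlier results of these data known. Library size scaling gave 527 genes higher and 556 lower, against 616 and 417 with TMM. Standard errors are edgeR's log2 fold change divided by the root of its F. The edgeR step was tested on counts simulated from the gene means and library sizes of these data. Every gene had the same dispersion, and the planted treatment changes were larger than those of all receptors here except *Cx3cr1*. The simulation thus does not cover smaller changes or the spread seen between these mice. Genes named are the 7 receptors, list genes past the threshold, ligands of at least 1 CPM and the 3 genes most alike each receptor; other list genes were named after their values were seen. Some genes that this rule or the marker lists would name are not reported here.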

Additional observations from a re-analysis of the deposited data

How the results depend on the processing

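The treatment fit called 1033 genes, 5 of the 7 receptors, 17 genes of the fixed lists and 3 further receptors of the 4 families. Without the replicate block, which drops the pairing by mouse, it called 686 genes and 2 of the 7 receptors. With no filter on low counts it called 1692 genes, 26 list genes and 8 further family receptors, with a length offset 579 genes and 10 list genes, and with library size scaling or limma-voom 5 further family receptors each. Leaving out 1 mouse gave 377 to 1910 genes (634 without mouse 2 and 441 without mouse 4), 2 to 5 of the 7 receptors, 8 to 32 list genes (9 without mouse 4) and 1 to 8 further family receptors. The lowest value for all genes came without mouse 3 and the highest without mouse 1, and the 7 receptors dropped to 2 called without mouse 3 or mouse 4. The mouse term called 5 genes and 0 of the 7 receptors. It called 1183 genes and 3 receptors with no filter, 242 genes and 2 receptors with DESeq2, and 0 to 183 genes and 0 to 2 receptors with 1 mouse left out. Transcripts whose share moved the same way in every mouse numbered 3, and 3 to 5 with 1 mouse left out. A transcript that moves the same way in all mice also does so when 1 is left out. The order of vehicle levels held in 7 of 7 positions under every setting run. No called gene changed its direction, but *Ccr1*, which was not called, went from -0.03 to 0.10 without mouse 1, and *Ccl6*, not called either, went from -0.14 to 0.00 without mouse 2. The cause of these changes was not tested. Depth limits *Ccr2*, with 67 reads in its lowest library, a counting error of 12.2%, and *Ccrl2*, at 6.57%, while it is 1.04% for *Cxcr4*, and these errors cover counting only.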
